A study of Mus musculus with 23 samples.

Results

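The question was whether repeated LDOPA changed ribosome-bound mRNA by the same amount in striatal cells of the direct and the indirect pathway. All 23 arrays of the series were used, chosen by their titles, and for each probe the change after chronic LDOPA in the DRD1A line minus the change in the DRD2 line was taken as the difference between the lines. A positive difference means that the DRD1A change lay above the DRD2 change, and a negative one that it lay below. No probe reached an adjusted p under 0.05 for this difference, so the genes below are a ranked description of where the lines parted most relative to their error.

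The mice were of the strain C57BL/6J/Swiss-Webster and 71 days old, and each carried a bacterial artificial chromosome in which the promoter of DRD1A or of DRD2 drives EGFP-L10a, a ribosomal protein with a fluorescent tag. Each promoter was represented by a single line of mice. Every mouse of every group had received a unilateral injection of 6-OHDA, which kills dopamine neurons, into the medial forebrain bundle at an age of 35 days. For 21 days the chronic groups then received LDOPA, the precursor of dopamine (6 mg/kg), together with benserazide (15 mg/kg), 2 times a day, while the acute groups received saline. On day 22 every mouse of all 4 groups received LDOPA with benserazide, and striatum of the lesioned side was taken 40 minutes later. The contrast therefore sets repeated exposure plus a last dose against a first dose, and no group lacked LDOPA or the lesion. By label the DRD1A line had 7 arrays after acute and 8 after chronic LDOPA, and the DRD2 line had 4 of each. The study's text instead gives 8 mice for DRD2 acute and 4 for DRD1A chronic, and the labels were used here. By its methods every array held RNA of an individual mouse, although 2 arrays were nearly identical and were averaged, as described below. The DRD2 promoter is also active in cholinergic interneurons, so the DRD2 line may tag more than 1 cell type.

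Dopamine acts on 2 opposed classes of medium spiny neuron. Direct pathway neurons carry the D1 receptor, which couples through Golf to adenylyl cyclase and raises cAMP, and they promote movement. Indirect pathway neurons carry the D2 receptor, which couples through Gi/o and lowers cAMP, and they restrain movement. After loss of dopamine the D1 response to LDOPA becomes sensitized in rodents, with activation of the ERK kinases, and repeated dosing leads to dyskinesia. PAK1, a gene that the study names, encodes a p21-activated kinase, an effector of RAC1 and CDC42 that regulates actin in dendritic spines.

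Arrays are named here by BeadChip number and position, and levels are quantile-normalized signals on the log2 scale. Between 13114 and 17443 of 45281 probes were detected per array, and median signals lay between 122 and 165.5. The DRD2 chronic arrays 1D and 3A correlated at r = 0.990 across probes, while no other of the 253 pairs of arrays went above 0.928, so these arrays were averaged and counted as 1 sample. That left n = 7, 8, 4 and 3 samples. BeadChip 1 held 4 of the 7 DRD1A acute and 2 of the 4 DRD2 chronic arrays and no array of the other groups, so values with the BeadChip as a block and within BeadChips 3 and 4, which hold all 4 groups, are given beside the leading results. Within BeadChips 3 and 4 each value rests on 3 DRD1A chronic arrays and 1 array of each other group.

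DRD2 transcript separated the lines in every sample, whereas DRD1A transcript did not. DRD2 transcript was at 11.34, 11.46, 11.04 and 11.19 in the DRD2 acute samples and at 9.95 (1A), 11.05 (1D with 3A) and 11.17 (4A) in the DRD2 chronic samples, against 7.11 to 7.76 in all DRD1A samples. DRD1A transcript lay at 8.12 to 10.35 in the DRD1A samples. In the DRD2 chronic samples it was 9.28 (1A), 7.12 (1D with 3A) and 8.50 (4A), and in the DRD2 acute samples 8.42 (2C), 7.46, 7.47 and 7.31, so that 1A, 4A and 2C reached into the DRD1A range, 1A the furthest. For that reason the direction of leading values was also checked without 1A, a check that leaves 4A and 2C in place. Of 5 cholinergic interneuron markers tested, none was detected on every array. In bulk RNA from tagged ribosomes, fewer cells of a type and less RNA per cell cannot be told apart.

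PAK1 was measured by 1 probe, which was detected on every array. In the DRD1A line its level ran from 8.58 over a median of 9.24 to 9.57 in the acute samples and from 8.58 over a median of 9.62 to 10.01 in the chronic samples. In the DRD2 line it was 8.71, 8.59, 9.21 and 9.20 in the acute samples and 8.49 (1A), 7.94 (1D with 3A) and 8.10 (4A) in the chronic samples. All 3 DRD2 chronic samples lay below all 4 DRD2 acute samples, and 5 of 8 DRD1A chronic samples lay above every DRD1A acute sample while the groups of that line overlapped.

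The mean PAK1 change was 0.36 with a standard error (SE) of 0.21 in DRD1A, a 1.28-fold level, and -0.75 (SE 0.30) in DRD2, a 0.596-fold level. Their difference was 1.10 (SE 0.37, 95% interval 0.34 to 1.87) on the log2 scale, a 2.15-fold ratio of the changes. It did not pass across all probes (limma, adjusted p = 0.88), nor did either change (adjusted p = 0.711 in DRD1A and 0.734 in DRD2). With the BeadChip as a block the difference was 1.16 (adjusted p = 0.91), within BeadChip 3 it was 1.86, within BeadChip 4 it was 1.20, and without array 1A it was 1.26. PAK1 was chosen with these arrays known, so its values describe them and give no independent support.

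The 250 bases before the first annotated start of PAK1 are shown because it holds the palindrome TGACGTCA, the cAMP response element to which CREB binds. The same stretch of KLHL12, the only other gene with such a match among those looked up, follows. Both come from RefSeq on GRCm38.p6, chr7:97788291-97788540 on the plus strand for PAK1 and chr1:134455281-134455530 on the plus strand for KLHL12, written 5′ to 3′ and ending at the base before the start. Capitals mark TGACGTCA and its shorter core TGACG, on either strand.
PAK1: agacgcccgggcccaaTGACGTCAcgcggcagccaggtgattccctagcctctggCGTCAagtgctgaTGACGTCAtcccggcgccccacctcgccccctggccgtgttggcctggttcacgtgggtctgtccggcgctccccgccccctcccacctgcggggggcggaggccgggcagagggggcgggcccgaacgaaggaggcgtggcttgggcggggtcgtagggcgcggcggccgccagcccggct
KLHL12: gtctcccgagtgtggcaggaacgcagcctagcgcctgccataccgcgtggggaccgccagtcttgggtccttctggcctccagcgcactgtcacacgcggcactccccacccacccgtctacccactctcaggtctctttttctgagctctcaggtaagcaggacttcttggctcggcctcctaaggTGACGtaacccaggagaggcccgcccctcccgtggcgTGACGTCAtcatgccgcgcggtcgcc
PAK1 held 2 palindromes, starting 234 and 182 bases before the start, and KLHL12 held 1, starting 26 bases before it. Of the 29 genes that were ranked below or called in a line, PAK1 included, 20 had a promoter in the table. Among these 20, 2 held TGACGTCA, against 508 of all 32851 promoters (1.55%). The core TGACG, which every palindrome contains, was found in 11 of the 20 genes, against 5836 of all promoters (17.8%). The AP-1 motif TGANTCA was found in 2, RBP4 and UBB, against 2217 (6.75%). A gene was counted if any of its listed starts held a match, whereas the background counts each promoter once. Several starts are listed for some genes, which gives them more chances of a match. The shares are thus not like for like, and no excess is read from them. PAK1's other annotated start held none of these motifs. A match is a description of letters and not of binding.

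Across all probes the lines did not differ by any call. Of 32255 probes tested, 0 were called for the difference (0%), and the smallest adjusted p was 0.427, shared by 13 probes. At an unadjusted p under 0.05 there were 1796 probes (5.57%). The count depended on which arrays were averaged or left out. With 1D and 4A averaged instead, 3 probes were called (GLDC, LOC672705 and SLC15A2, all with a negative difference, smallest adjusted p = 0.0145). That setting keeps 3A apart from 1D, so the near-identical arrays enter separate samples as if they were independent. Without array 4A there were 7 calls, with only 1A and 1D with 3A left in the DRD2 chronic group. Over the 12081 probes detected on every array of at least 1 group and on at least 1 array of each group, the median SE was 0.40 for the difference, 0.22 for the DRD1A change and 0.33 for the DRD2 change. The median size of the difference was 0.28, below its own median SE, and it reached 1 in size for 544 probes (4.5%).

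The changes of the lines had a low correlation. Across the 12081 detected probes, the DRD1A and DRD2 changes had r = 0.16, and 5311 probes (44%) had opposite signs. The changes share no samples, but BeadChip 1 held only DRD1A acute and DRD2 chronic arrays. An effect of that BeadChip would enter the changes with opposite signs, and its part was not tested. The median size of change was 0.19 in DRD1A and 0.24 in DRD2, below the median SEs of 0.22 and 0.33, so error also limits r. Genes are not independent replicates, and all samples share the platform and normalization. A change of at least 0.5 was seen for 1497 probes (12.4%) in DRD1A and for 2340 (19.4%) in DRD2, the line with fewer samples and larger errors. Both changes reached 0.5 with the same sign for 258 probes (2.14%) and with opposite signs for 137 (1.13%), 58 of them higher in DRD1A (0.48%) and 79 lower (0.654%).

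**Figure D1:**
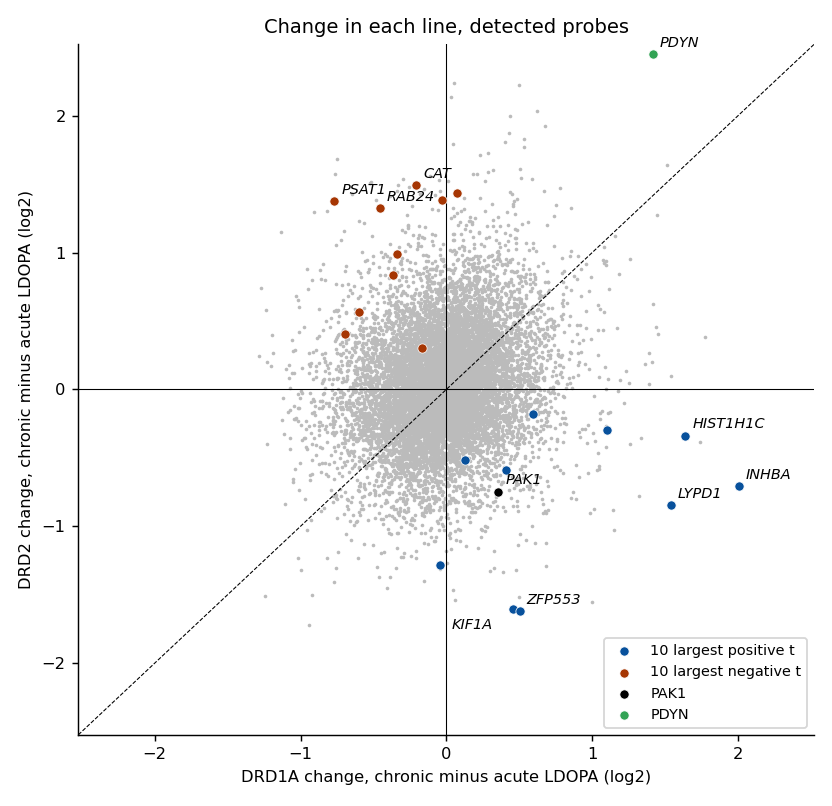
Change after chronic LDOPA in the DRD1A line (x axis, log2) against that in the DRD2 line (y axis, log2) for 12081 detected probes (grey), with the dashed line marking equal changes. The 10 genes with the largest positive difference by t (blue) lie below the dashed line, the 10 with the largest negative difference (brown) above it, and PDYN (green) is high in both lines.

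Genes were ranked by the moderated t of the difference, 10 in each direction, with 1 probe a gene among detected probes and predicted or clone names left out. Because the ranking used this contrast, the values are a description. In 18 of the 20 genes the changes of the lines had opposite signs. In all 20 the sign of the difference was the same with the BeadChip as a block, within BeadChip 3, within BeadChip 4 and without array 1A. The ranking favours both, since every check reuses arrays of the ranked contrast, so the shared sign is not independent support. Adjusted p lay between 0.427 and 0.635. DRD2 acute and chronic samples did not overlap for 12 of the 20 genes, against 2225 of all 32255 probes (6.9%; 3.28% higher and 3.62% lower after chronic LDOPA) and 6.56% of detected probes. DRD1A samples did not overlap for 5, against 44 probes (0.136%; 0.0558% higher and 0.0806% lower) and 0.265% of detected probes. Nothing is read from these counts, since the ranking favours such genes. No probe had groups that did not overlap in both lines with opposite directions (0 of 32255, 0%).

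Of the 10 genes with a positive difference, KIF1A had the largest t. KIF1A, a kinesin motor that carries synaptic vesicle precursors, had a level of 8.72, 9.18, 8.66 and 9.16 in the DRD2 acute samples and of 7.22 (1A), 7.34 (1D with 3A) and 7.41 (4A) in the DRD2 chronic samples. Its DRD1A levels ran from 7.06 over 7.204 to 8.19 in acute and from 7.01 over 7.85 to 8.65 in chronic samples. All DRD2 chronic samples lay below all DRD2 acute samples, while the DRD1A groups overlapped over most of their range. The change was 0.46 (SE 0.23) in DRD1A and -1.61 (SE 0.34) in DRD2, where the chronic mean was 0.328 of the acute mean, and the difference was 2.06 (SE 0.41, 95% interval 1.20 to 2.93, adjusted p = 0.427). The probe was detected on all 4 DRD2 acute arrays, on 3 of 4 DRD2 chronic arrays and on 8 of the 15 DRD1A arrays. It thus passed the detection filter through the DRD2 acute group only, and the lower levels were near the detection limit.

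INHBA, the subunit of activin A, had the largest difference of the 20 genes in size. Its DRD1A levels ran from 7.16 over 7.49 to 7.95 in acute and from 8.37 over 9.49 to 10.80 in chronic samples, with no overlap. The DRD2 levels were 8.56, 10.10, 8.12 and 8.80 in acute and 7.67 (1A), 9.62 (1D with 3A) and 7.27 (4A) in chronic samples, which overlapped. The change was 2.00 (SE 0.37, adjusted p = 0.0662) in DRD1A, a 4.01-fold level, and -0.71 (SE 0.55) in DRD2, and the difference was 2.71 (SE 0.66, adjusted p = 0.538). Within BeadChip 3, whose DRD2 chronic array is 3A, the difference was 0.53, and within BeadChip 4 it was 3.67.

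LYPD1, a Ly6 family protein that modulates nicotinic receptors, followed the same pattern at 1 of its 2 probes. At the brighter probe the DRD1A levels ran from 8.86 over 10.07 to 10.76 in acute and from 10.81 over 11.53 to 11.88 in chronic samples, without overlap, while the DRD2 levels were 11.09, 10.83, 9.20 and 9.97 in acute and 9.98 (1A), 9.56 (1D with 3A) and 8.74 (4A) in chronic samples. The change was 1.54 in DRD1A and -0.85 in DRD2, and the difference was 2.38 (SE 0.52, adjusted p = 0.438). The other LYPD1 probe gave a difference of -1.28 (SE 0.83), in the opposite direction, so its probes disagreed.

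DUSP26, a dual-specificity phosphatase, was called in the DRD1A line. Its DRD1A levels ran from 11.42 over 11.73 to 11.81 in acute and from 12.10 over 12.29 to 12.49 in chronic samples. The DRD2 levels were 12.02, 11.96, 12.004 and 11.81 in acute and 11.93 (1A), 12.04 (1D with 3A) and 11.33 (4A) in chronic samples. All 8 DRD1A chronic samples lay above the acute ones, whereas the DRD2 groups overlapped and a single sample, 4A, lay far below the rest. The change was 0.60 (SE 0.09, adjusted p = 0.0193) in DRD1A and -0.18 (SE 0.13) in DRD2, a difference of 0.78 (SE 0.16, adjusted p = 0.427).

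The ranked genes also held HIST1H1C, a linker histone, and SMARCD3, a subunit of the SWI/SNF remodelling complex. HIST1H1C rose by 1.64 (SE 0.28, adjusted p = 0.047) in DRD1A, from a median of 8.997 to 10.66, with 7 of 8 chronic samples above all acute ones, while its DRD2 levels stayed between 10.21 and 11.27 in all samples. The difference was 1.97 (SE 0.50) and 1.61 (SE 0.61) at a second probe. SMARCD3 had a change of 0.41 in DRD1A and -0.59 in DRD2, a difference of 1.00 (SE 0.22, adjusted p = 0.438), with 5 of 8 DRD1A chronic samples above and 2 of 3 DRD2 chronic samples below every acute sample of their line.

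The remaining genes of this direction were KLHL12, RBP4, GMPPA and ZFP553. KLHL12, an adaptor of a cullin-3 ubiquitin ligase, was at 7.53, 9.14, 8.47 and 8.72 in DRD2 acute and 7.12, 7.23 and 7.21 in DRD2 chronic samples, with DRD1A levels of 7.09 to 7.69 in both treatments. Its difference of 1.24 (SE 0.30, adjusted p = 0.53) was the only one among 77 named genes that passed in any alternative run for it, at an adjusted p of 0.0158 without the DRD2 acute array 2C. The probe was detected on 2 of 4 DRD2 chronic arrays, and it passed the detection filter through the DRD2 acute group only. RBP4, a retinol carrier, rose by 1.10 in DRD1A (SE 0.19, adjusted p = 0.047, no overlap) and differed by 1.395 (SE 0.34), although its DRD2 chronic samples split into 7.27 (1A), 8.71 (1D with 3A) and 7.39 (4A). GMPPA, which regulates the synthesis of GDP-mannose, differed by 0.64 (SE 0.16) at a dim probe that was detected on 2 of 4 DRD2 chronic arrays. Its other probe differed by 0.25 (SE 0.33), and by -0.25 with the BeadChip as a block. ZFP553, a zinc finger protein, differed by 2.12 (SE 0.55), and its other, dimmer probe by -0.27 (SE 0.23).

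**Figure D2:**
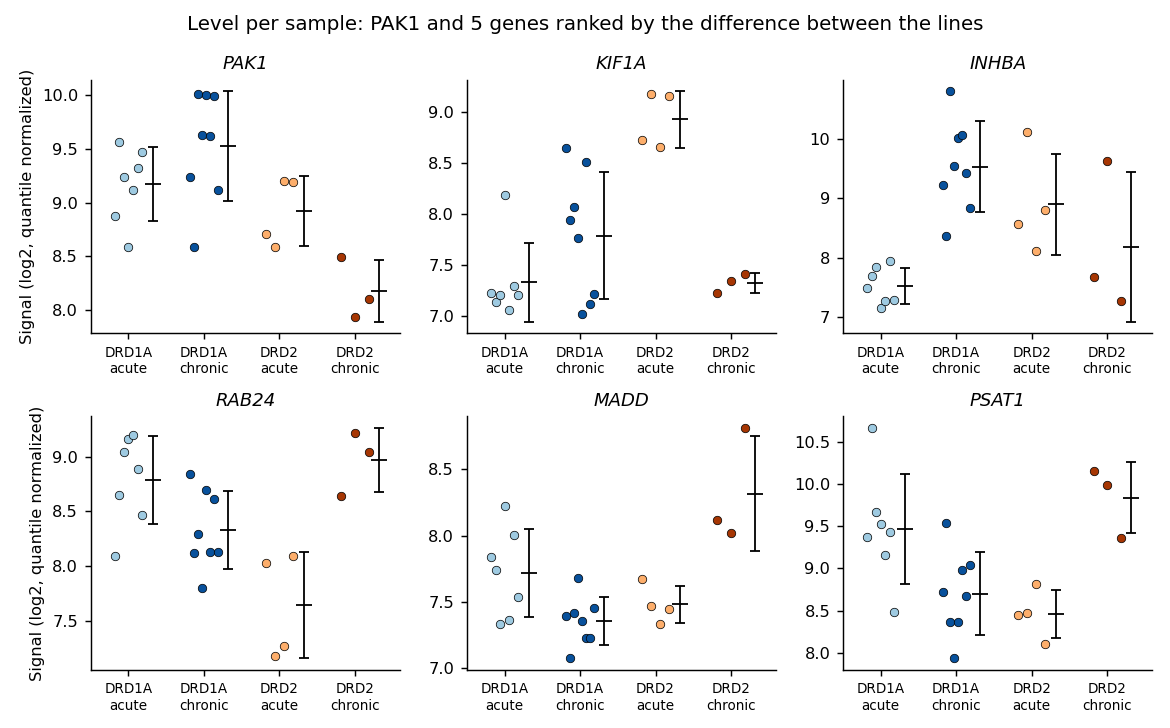
Level per sample (log2 signal, y axis) of PAK1 and 5 ranked genes in the 4 groups, with bars for the mean and SD. In PAK1 and KIF1A the 3 DRD2 chronic samples lie below the 4 DRD2 acute samples, and in RAB24, MADD and PSAT1 above them.

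Of the 10 genes with a negative difference, RAB24 had the largest t in size. RAB24, a small GTPase linked to autophagy, was at 8.03, 7.18, 7.27 and 8.10 in the DRD2 acute samples and at 8.64 (1A), 9.21 (1D with 3A) and 9.04 (4A) in the chronic samples. Its DRD1A levels ran from 8.10 over 8.89 to 9.20 in acute and from 7.81 over 8.21 to 8.84 in chronic samples. No DRD2 sample crossed between the treatments, and the DRD1A groups overlapped. The change was -0.46 (SE 0.19) in DRD1A and 1.32 (SE 0.29) in DRD2, a 2.5-fold level, with a difference of -1.78 (SE 0.35, 95% interval -2.50 to -1.05, adjusted p = 0.427). A second RAB24 probe differed by -1.44 (SE 0.29, adjusted p = 0.427) and another by 0.60 (SE 0.59).

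PSAT1, an enzyme of serine synthesis, had the largest negative difference in size of the 20 ranked genes. Its levels were 8.45, 8.47, 8.81 and 8.11 in DRD2 acute and 10.16 (1A), 9.99 (1D with 3A) and 9.36 (4A) in DRD2 chronic samples, while DRD1A levels ran from 8.48 over 9.43 to 10.66 in acute and from 7.94 over 8.69 to 9.54 in chronic samples. The DRD2 groups did not overlap, and 3 of 8 DRD1A chronic samples lay below every acute sample. The change was -0.77 (SE 0.26) in DRD1A and 1.38 (SE 0.38) in DRD2, and the difference was -2.14 (SE 0.46, adjusted p = 0.427), or -1.39 with the BeadChip as a block and -0.84 within BeadChip 4. PSAT1 is abundant in astrocytes, and the summed signal of 9 astrocyte markers ranged from 2540 to 3400 in DRD2 acute and from 2950 to 6210 in DRD2 chronic samples, 2 of the 9 being detected on every array. The part of astrocyte RNA in the PSAT1 value was not tested.

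MADD, an exchange factor for the vesicle GTPase RAB3, was at 7.67, 7.47, 7.33 and 7.45 in DRD2 acute and 8.12 (1A), 8.02 (1D with 3A) and 8.81 (4A) in DRD2 chronic samples. In DRD1A it ran from 7.33 over 7.74 to 8.23 in acute and from 7.08 over 7.37 to 7.68 in chronic samples, 3 of the 8 below every acute one. The difference was -1.20 (SE 0.24, adjusted p = 0.427), a second and brighter probe gave -1.28 (SE 0.38) and another 0.32 (SE 0.36).

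Subunits of the V-ATPase, the proton pump of lysosomes and synaptic vesicles, appeared among the 10 genes with ATP6V1H and ATP6V0A2. ATP6V1H was at 8.88, 7.83, 8.53 and 8.04 in DRD2 acute and 9.42, 9.16 and 9.34 in DRD2 chronic samples, a change of 0.99 (SE 0.26) against -0.34 (SE 0.18) in DRD1A and a difference of -1.33 (SE 0.31, adjusted p = 0.517). With the BeadChip as a block this was -0.74. ATP6V0A2 differed by -0.47 (SE 0.10) at a dim probe, and its other probe by 0.01 (SE 0.17). The dim probe was detected on every array of the DRD2 chronic group only, and so passed the detection filter through that group. The lysosome and proton pump list as a whole had a median difference of -0.03 over 29 genes, against 0.02 over all genes.

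The other genes of this direction were CAT, EEF1B2, NAMPT, NDST1 and ZFP689. CAT, which encodes catalase, was at 7.38, 7.36, 7.76 and 7.48 in DRD2 acute and 9.12, 8.92 and 8.94 in DRD2 chronic samples, a 2.82-fold level, with a difference of -1.70 (SE 0.42, adjusted p = 0.538). Its second probe, of similar brightness, gave -0.09 (SE 0.47). EEF1B2, an exchange factor of translation elongation, was at 7.89, 7.38, 7.26 and 7.15 in DRD2 acute and 8.99, 8.77 and 8.64 in DRD2 chronic samples and differed by -1.41 (SE 0.33), but its brighter probes gave 0.33 (SE 0.40) and -0.32 (SE 0.22). The dimmer EEF1B2 probe was detected on 2 of 4 DRD2 acute arrays, so its levels there were near the detection limit. NAMPT, an enzyme of NAD synthesis, was the only gene of the 10 whose DRD1A groups did not overlap, from 7.43 to 8.61 in acute and 7.13 to 7.41 in chronic samples, with a difference of -1.10 (SE 0.25). Its brighter probe gave 0.18 (SE 0.67). The dimmer NAMPT probe was detected on every DRD1A acute and DRD2 chronic array, but on 4 of 8 DRD1A chronic and 3 of 4 DRD2 acute arrays. NDST1, an enzyme of heparan sulphate synthesis, differed by -1.17 (SE 0.29), and its 4 other probes by -0.82, 0.16, 0.08 and -0.10. The ranked NDST1 probe was detected on every DRD1A acute and DRD2 chronic array, but on 3 of 8 DRD1A chronic and 2 of 4 DRD2 acute arrays. NAMPT and NDST1 thus passed the detection filter only through the groups where they were high, and their lower levels were near the detection limit. ZFP689, a zinc finger protein, differed by -1.36 (SE 0.28) and had the smallest adjusted p of the 20 ranked genes in the DRD2 line, 0.0786 for a change of 1.43. Its probe was detected on 3 of 7 DRD1A acute, 3 of 8 DRD1A chronic, 1 of 4 DRD2 acute and 4 of 4 DRD2 chronic arrays. It therefore passed the detection filter only through the group where it was high, and the other levels were near the detection limit.

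**Figure D3:**
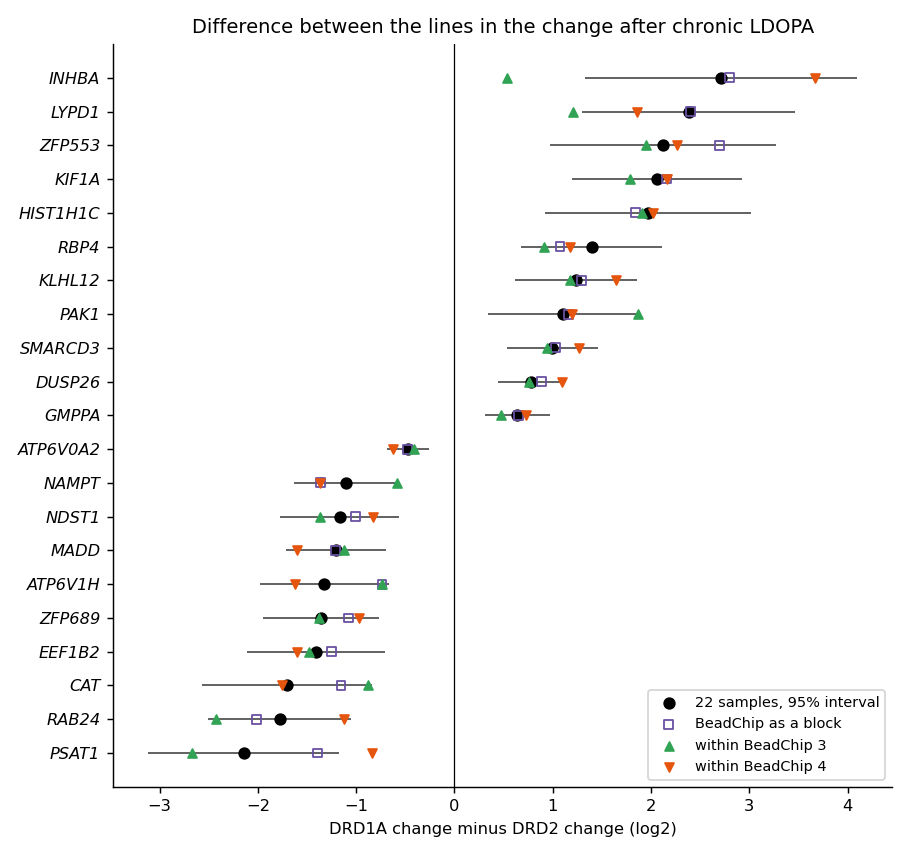
Difference between the lines (DRD1A change minus DRD2 change, log2, x axis) for PAK1 and the 20 ranked genes, with the 95% interval of the 22 samples (black), the value with the BeadChip as a block (open squares) and the values within BeadChips 3 and 4 (triangles). All markers of a gene lie on the same side of 0, which the ranking on the same arrays favours. INHBA at 0.53 within BeadChip 3 and PSAT1 at -0.84 within BeadChip 4 are among those nearest to 0 for their gene.

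Genes called within a line were set side by side between the lines. In DRD1A 11 of 32255 probes were called (0.0341%), 7 higher (0.0217%) and 4 lower (0.0124%), and in DRD2 only PDYN was called (0.0031%). The DRD1A count is fragile: it was 0 without BeadChip 1, and with the BeadChip as a block it was again 11, but only DUSP26, LOC100048295, PDYN and TOMM70A were among them. None of the 11 was called for the difference between the lines, so a call in DRD1A and none in DRD2 does not show unequal changes.

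PDYN, the precursor of dynorphin and a marker of direct pathway neurons, rose in both lines. Its DRD1A levels ran from 10.68 over 11.21 to 12.004 in acute and from 12.45 over 12.62 to 12.90 in chronic samples. In the DRD2 line it was 8.50, 9.16, 7.77 and 8.30 in acute and 11.35 (1A), 11.41 (1D with 3A) and 9.90 (4A) in chronic samples. Neither line's groups overlapped, and the DRD2 chronic levels of 1A and 1D with 3A lay within the range of the DRD1A acute samples.

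The PDYN change was 1.41 (SE 0.24, adjusted p = 0.0388) in DRD1A, a 2.66-fold level, and 2.45 (SE 0.35, adjusted p = 0.0308) in DRD2, a 5.46-fold level. The difference of -1.04 (SE 0.42, adjusted p = 0.883) did not pass, and it moved to -0.45 with the BeadChip as a block, -2.22 within BeadChip 3 and 0.11 within BeadChip 4. With the block the DRD2 change had an adjusted p of 0.341. Summed signals of the 9 direct pathway markers, PDYN among them, ranged from 3520 to 9040 in DRD2 acute and from 5870 to 8260 in DRD2 chronic samples. As a mean of centred log2 levels, the same 9 markers were at -0.99, -1.23, -1.13 and -0.71 in DRD2 acute and at -0.18 (1A), -0.71 (1D with 3A) and -0.80 (4A) in DRD2 chronic samples, higher in the chronic group with an overlap at the acute sample 4E. In sample 1D with 3A, where PDYN was highest, DRD1A transcript was at 7.12, the lowest of the DRD2 samples. The mean of the 9 markers in that sample was -0.71, against -0.99, -1.23, -1.13 and -0.71 in the acute samples. PDYN is 1 of the 9, so its own rise enters both the sum and the mean. Neither is therefore a separate measure of the other markers. The part of these markers' cells in the PDYN change was not tested.

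CREB1, the transcription factor that cAMP signalling activates, fell in DRD1A by 1.05 (SE 0.16, adjusted p = 0.0193). Its DRD1A levels ran from 9.25 over 9.53 to 9.86 in acute and from 7.90 over 8.45 to 9.18 in chronic samples, and its DRD2 levels were 9.41, 9.17, 8.97 and 9.35 in acute and 8.59, 8.28 and 8.77 in chronic samples. Neither line's groups overlapped and the chronic samples were the lower ones in both, with a DRD2 change of -0.67 (SE 0.23, adjusted p = 0.68) and a difference of -0.38 (SE 0.28). The next brightest CREB1 probe differed by 0.71 (SE 0.43), with a DRD1A change of 0.28. CREB1, PDYN and GNAO1, the alpha subunit of the Go protein, were the only 3 probes of 32255 (0.0093%) without overlap in both lines and with the same direction. GNAO1 had a change of -0.64 in DRD1A and -0.51 in DRD2.

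The other called genes were picked by their DRD1A change, which by itself favours a larger change in DRD1A than in DRD2. Their values are a description, and none of the differences passed. LOC100048295, a predicted gene, rose by 1.78 (adjusted p = 0.00443) in DRD1A against 0.38 in DRD2. TOMM70A, which receives proteins for import into mitochondria, rose by 0.90 (adjusted p = 0.0193) against 0.26. HIST1H2BC, a core histone, rose by 1.25 (adjusted p = 0.047) against 0.05, with differences of 1.20 (SE 0.39) and 1.43 (SE 0.40) at its probes. In the downward direction LOC432554 fell by 1.12 (adjusted p = 0.047) against -0.06 in DRD2, UBB, a ubiquitin gene, fell by 0.75 (adjusted p = 0.0388) against -0.20, and PNCK, a calmodulin-dependent kinase, fell by 0.49 (adjusted p = 0.0231) against -0.14.

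**Figure D4:**
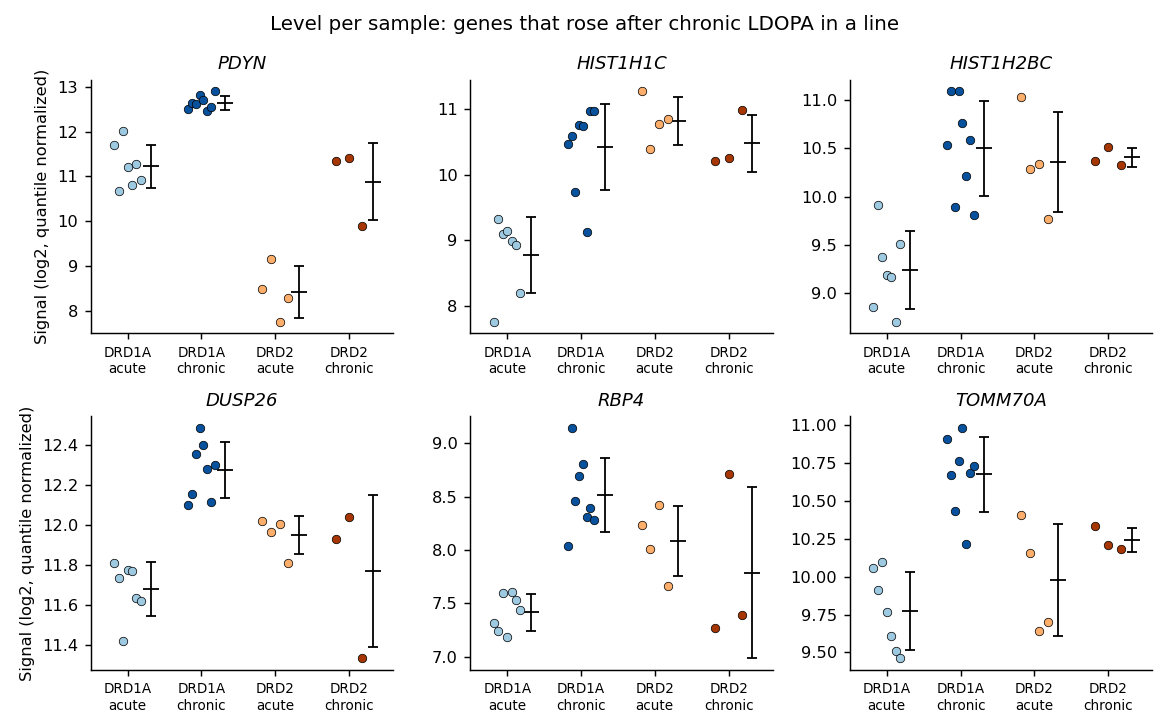
Level per sample (log2 signal, y axis) of 6 genes that rose after chronic LDOPA in the DRD1A line, in the 4 groups, with bars for the mean and SD. PDYN is higher in the chronic samples of both lines, HIST1H1C and HIST1H2BC already lie near the DRD1A chronic levels in the DRD2 samples, and DUSP26 and RBP4 show a DRD2 chronic sample apart from the others.

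Among the 137 probes with changes of at least 0.5 in opposite directions, a few of those whose smaller change was largest are given here, chosen after their values were seen. STX6, a syntaxin of the Golgi and endosomes, had a change of 0.995 in DRD1A and -1.55 in DRD2 (difference 2.55, SE 0.89, adjusted p = 0.88). TMEM107, a protein of the ciliary transition zone, had a change of -1.13 and 1.15 (difference -2.28, SE 0.88), but a difference of only -0.13 within BeadChip 3. IGFBP5, a binding protein of insulin-like growth factors, had a change of -0.87 and 0.87 (difference -1.74, SE 0.68). BRI3BP had a change of 0.987 and -0.90 (difference 1.89, SE 0.55), and CLIC4, an intracellular chloride channel protein, of 1.14 and -0.88 (difference 2.02, SE 0.95). RAB23, a GTPase of hedgehog signalling, had a change of -0.96 and 0.88 (difference -1.83, SE 0.75). None of the 137 had groups that did not overlap in both lines.

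Gene groups are described by the median over their members of the change in each line and of the difference, with 1 probe per gene, beside the same over all 23008 genes tested. Over all genes the median was 0.01 in DRD1A, -0.01 in DRD2 and 0.02 for the difference. The difference was positive for 55.2% of genes, and 48.1% had opposite signs in the lines. No member of any of the 38 lists was called for the difference.

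Cytosolic ribosomal protein genes mostly had positive changes in the DRD2 line. Of 64 genes, 49 (76.6%) had a positive DRD2 change, against 45% of all genes, and 9 (14.1%) had a positive difference. Their median change was 0.03 in DRD1A and 0.24 in DRD2, and the median difference was -0.20. As a mean over the 64 genes, centred on each gene's mean, the DRD2 acute samples lay at -0.15, -0.31, -0.11 and -0.30 and the DRD2 chronic samples at -0.07 (1A), -0.02 (1D with 3A) and 0.13 (4A), without overlap, while DRD1A samples ran from -0.12 to 0.25 in acute and from -0.12 to 0.16 in chronic samples. Single members showed the same shift: RPS2 had a change of 0.59 (SE 0.17) in DRD2 and -0.02 in DRD1A, RPS3A of 0.57 and -0.24, and RPS26 of 0.57 and 0.08, none of them called. The DRD2 groups did not overlap for 11 members that were higher and 2 that were lower after chronic LDOPA, against 707 and 832 of all genes. The median difference was 0.05 within BeadChip 3, -0.69 within BeadChip 4 and -0.32 with the block, so its direction depended on the BeadChip.

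Translation factors are given beside them. Of 64 genes, 17 (26.6%) had a positive difference, with medians of -0.01 in DRD1A, 0.10 in DRD2 and -0.10 for the difference. Their mean over genes overlapped between the DRD2 groups, from -0.16 to 0.01 in acute and from -0.08 to 0.03 in chronic samples. EIF4G2, an initiation factor homologue, was at 11.53, 11.62, 11.96 and 12.25 in DRD2 acute and at 12.24, 11.89 and 12.16 in DRD2 chronic samples, with a difference of -0.63 (SE 0.22). EIF2B4, a subunit of the exchange factor for eIF2, went against the list, with a DRD2 change of -1.06 (SE 0.33), no overlap between the DRD2 groups and a difference of 1.08 (SE 0.40).

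The 8 mitochondrially encoded transcripts all had a positive difference, with medians of 0.09 in DRD1A, -0.40 in DRD2 and 0.53 for the difference. MT-ND5, a subunit of complex I, was at 11.13, 10.76, 11.10 and 10.26 in DRD2 acute and 10.73 (1A), 10.68 (1D with 3A) and 9.16 (4A) in DRD2 chronic samples. MT-ND1 was at 10.83, 11.53, 11.23 and 8.13 and then at 10.36, 11.37 and 8.39. The samples of BeadChip 4, 4E and 4A, carried the lowest MT-ND1 levels of the DRD2 line, and the groups overlapped. These transcripts varied widely within every group, with an SE of 0.75 for MT-ND5 and 1.08 for MT-ND1, and the list's median difference was -0.58 within BeadChip 3, 1.55 within BeadChip 4 and -0.05 without the DRD2 chronic array 4A. Nuclear-encoded respiratory chain genes had a median difference of -0.06 over 77 genes. NDUFA5, a subunit of complex I, had a change of 0.68 in DRD2 without overlap and of -0.24 in DRD1A, whereas ATP5O, a subunit of the ATP synthase, had a change of -0.21 and 0.36. Among 19 mitochondrial import genes the median difference was -0.05, with TOMM70A as the called member of DRD1A, TIMM23 at a difference of 0.77 (SE 0.30) and TIMM8B at 0.80 (SE 0.35).

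Histone genes mostly had negative changes in both lines. Over 69 genes the median change was -0.32 in DRD1A and -0.21 in DRD2, the median difference was -0.04, and 26.1% had opposite signs in the lines. Replication-type H3 genes were alike: HIST1H3E had a change of -0.996 in DRD1A and -1.32 in DRD2, and HIST1H3H of -0.92 and -1.50, with no overlap of the DRD2 groups. H1F0, a linker histone of resting cells, had a change of 0.64 in DRD1A and -0.44 in DRD2 and so resembled HIST1H1C, with a difference of 1.07 (SE 0.39, adjusted p = 0.88). Histone genes are near-identical copies whose probes can share targets, so single members are uncertain.

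**Figure D5:**
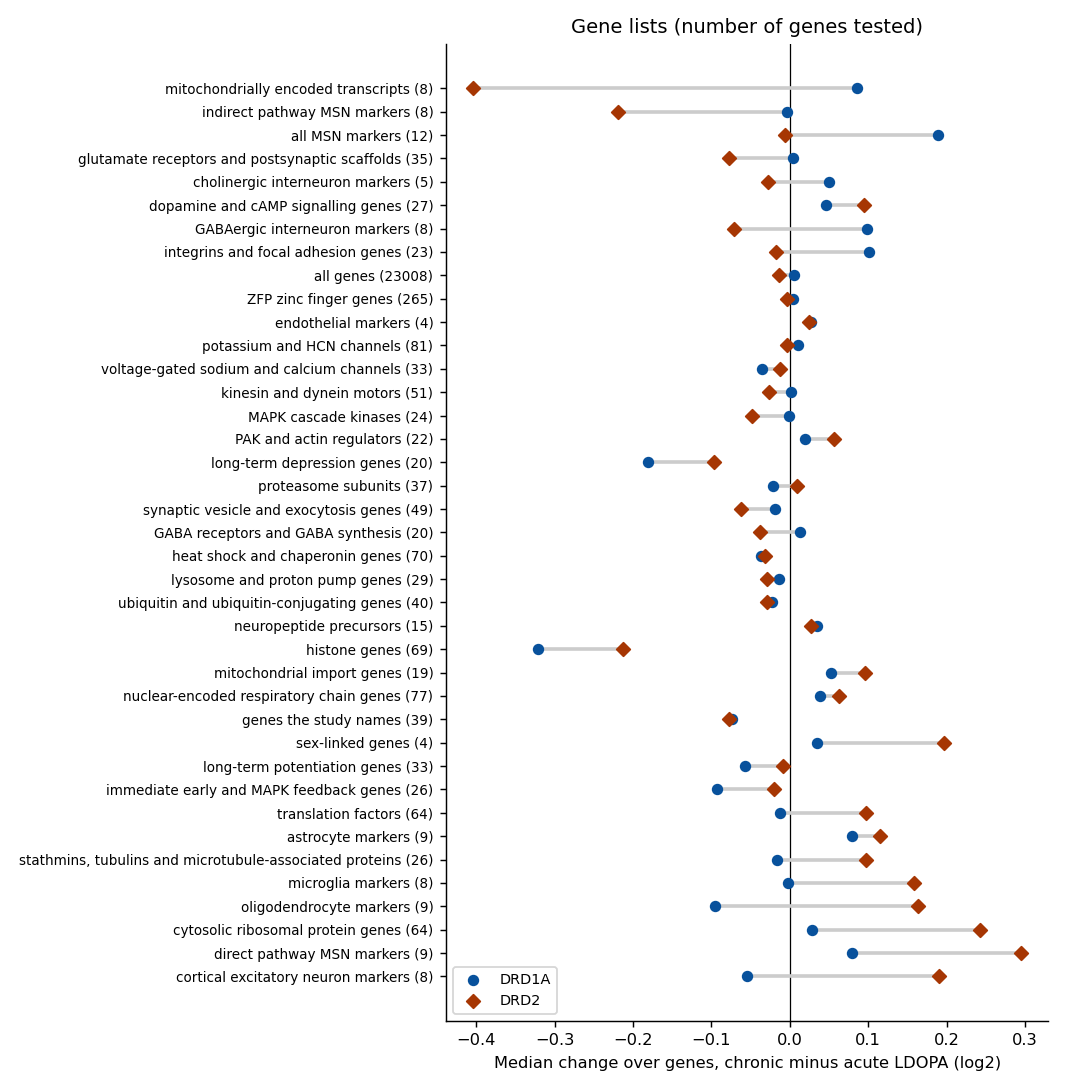
Median change after chronic LDOPA (log2, x axis) in the DRD1A line (circles) and in the DRD2 line (diamonds) over the genes of each list, with the number of genes tested in brackets and the lists ordered by their median difference. Ribosomal protein genes lie at 0.03 and 0.24, mitochondrially encoded transcripts at 0.09 and -0.40, and all genes near 0.

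Of 22 genes of PAK signalling and actin tested, 10 had a positive difference, the median difference was -0.01, and the DRD2 groups did not overlap for 1 member, PAK1, against 6.9% of all probes. RAC1, the GTPase that activates PAK1, had a change of -0.44 (SE 0.16) in DRD1A and 0.16 in DRD2, a difference of -0.60 (SE 0.28). DSTN, the actin-severing protein destrin, differed by -0.69 (SE 0.32). Among the other kinases of the family, named here after their values were seen, PAK2 had a change of -0.13 in DRD1A and 0.80 (SE 0.52) in DRD2, resting on a single sample at 9.59 (1D with 3A) where the other DRD2 samples were at 7.27 to 7.93. PAK3 differed by 0.21 (SE 0.55), a value whose sign changed under some alternatives.

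The integrin and focal adhesion list, which also holds PAK1, included FARP2 and MYL9. FARP2, an exchange factor for RAC1 and CDC42, was at 8.24, 9.09, 9.29 and 8.98 in DRD2 acute and 7.93, 7.49 and 7.74 in DRD2 chronic samples, without overlap. Its DRD1A samples ran from 7.14 over 7.198 to 8.13 in acute and from 7.10 over 7.54 to 8.74 in chronic, and the difference was 1.503 (SE 0.41, adjusted p = 0.729). MYL9, a myosin light chain, was dim and differed by 0.25 (SE 0.08). Over 23 integrin and focal adhesion genes, 16 (69.6%) had a positive difference with a median of 0.08. FARP2 and MYL9 were picked by the study on these samples and are not independent evidence of a direction.

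Signalling below the dopamine receptors had no member called for the difference. Of 27 dopamine and cAMP signalling genes, 14 (51.9%) had a positive difference, and the median was 0.10. GNAL, the alpha subunit of Golf, ran in DRD1A from 10.91 over 11.30 to 11.74 in acute and from 11.54 over 11.89 to 12.12 in chronic samples, and in DRD2 it was 11.74, 11.94, 12.16 and 12.05 in acute and 12.14, 11.73 and 11.82 in chronic samples. The DRD1A groups overlapped by a narrow margin, with 6 of 8 chronic samples above every acute one, and the DRD2 groups overlapped too. The difference was 0.62 (SE 0.21, adjusted p = 0.88), 1.33 within BeadChip 3 and 0.27 within BeadChip 4. PPP1R1A, an inhibitor of protein phosphatase-1 that protein kinase A activates, had a change of 0.64 (SE 0.19) in DRD1A and -0.30 in DRD2, and GNB1, a G protein beta subunit, of -0.65 (SE 0.18) and 0.23.

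The receptors and peptides that define the cell types were in part moved of 1 sample. The DRD2 transcript had a change of -0.53 in the DRD2 line, and its difference of 0.49 became 0.10 without array 1A. Similarly the 9 direct pathway markers had a median difference of -0.23, which was 0.10 without 1A, and the 8 indirect pathway markers had one of 0.24, which was -0.01 without it. PENK1, the enkephalin precursor of indirect pathway neurons, had a change of 0.56 (SE 0.31) in DRD1A and -0.21 (SE 0.46) in DRD2, and NPY, a peptide of interneurons, of -0.26 and 0.57.

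Kinases of the MAPK cascade and immediate early genes belong to the route that sensitized D1 receptors use. The median difference was 0.00 over 24 MAPK genes and -0.09 over 26 immediate early and feedback genes, with 12 positive in each list. For the immediate early list it was -0.58 within BeadChip 3, 0.25 within BeadChip 4 and -0.26 over its detected members. MAP2K1, the kinase of ERK, had a change of -0.03 in DRD1A and 0.39 in DRD2, BRAF of 0.47 and -0.15, and DUSP14, a phosphatase of MAP kinases, of 0.35 and -0.67. ARC, an immediate early gene of dendrites, ran from 8.32 to 10.43 over the DRD2 acute samples alone and differed by -0.86 (SE 0.63).

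Synaptic genes were likewise mixed. Over 35 glutamate receptor and scaffold genes, 23 (65.7%) had a positive difference and the median was 0.15, which was 0.04 without array 1A. DLG2, the scaffold PSD-93, had a change of 0.48 in DRD1A and -0.43 in DRD2, and GRM3, a metabotropic receptor, of 0.42 and 1.30. Of 20 genes of GABA receptors and synthesis 65% had opposite signs, with a median difference of -0.03. GAD1 and GAD2, which synthesize GABA, differed by 0.42 (SE 0.23) and 0.51 (SE 0.26), and SLC32A1, its vesicular transporter, by 0.87 (SE 0.34) with DRD2 groups that did not overlap. In the synaptic vesicle list, SNAP91, a clathrin adaptor, had a change of -0.57 (SE 0.14) in DRD1A and 0.31 in DRD2 (difference -0.88, SE 0.25). The median difference over these 49 genes was -0.02.

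Among ion channels, KCNC4, a Kv3 potassium channel, was at 9.40, 8.93, 9.23 and 7.43 in DRD2 acute and at 10.19, 10.80 and 9.77 in DRD2 chronic samples, without overlap, and had a change of -0.52 in DRD1A (difference -2.03, SE 0.57, adjusted p = 0.755). KCNA6, a Kv1 channel, had a change of 0.58 (SE 0.14) in DRD1A and -0.32 in DRD2 (difference 0.90, SE 0.25, adjusted p = 0.74). SCN2B, a beta subunit of sodium channels, had a change of 0.43 (SE 0.12) in DRD1A and 0.03 in DRD2. The lists were centred near 0, with a median difference of 0.01 over 81 potassium and HCN channel genes and of 0.01 over 33 sodium and calcium channel genes.

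Kinesins and dyneins, which include KIF1A, had a median difference of 0.00 over 51 genes, and the DRD2 groups did not overlap for 5 that were lower and 1 that was higher after chronic LDOPA, against 832 and 707 of all 23008 genes. KIF3A, a subunit of kinesin-2, was at 9.95, 10.64, 9.89 and 10.02 in DRD2 acute and 9.51, 9.62 and 9.39 in DRD2 chronic samples, with a difference of 0.74 (SE 0.31). Proteasome subunits had a median difference of -0.01 over 37 genes, with PSMD10 at 1.55 (SE 0.60) and PSMB3 at -0.68 (SE 0.31). The long-term potentiation and long-term depression lists had median differences of -0.08 over 33 genes and -0.01 over 20. CAMK2B, a calmodulin-dependent kinase, differed by 0.49 (SE 0.24), ITPR1, the inositol trisphosphate receptor, by 0.52 (SE 0.23), and GNA11, a Gq-class alpha subunit, by -1.32 (SE 0.57).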

How the data were processed

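RNA bound to tagged ribosomes was measured on Illumina Mouse WG-6 v2 BeadChips after amplification to cDNA. The deposited signals are bead averages on an intensity scale, taken by the authors from GenomeStudio with neither log transformation nor scaling nor background removal. The deposited detection p-values compare each probe with negative control beads on its array. The deposited log2 values of the series table were quantile normalized by the authors and entered 1 alternative setting. A further 4 columns, of an array that matches no listed sample, were not used.

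With limma 3.58.1 (R 4.3.3), the 23 arrays were brought to common quantiles and log2 values taken. A probe was kept if, in at least 1 group, it exceeded the 20th percentile of each array, which left 32255 of 45281. The near-identical arrays were averaged, leaving 22 samples. The design had named arrays 1D and 4A (r = 0.905), but the data showed 1D and 3A to be the pair (r = 0.990), so 1D and 3A were averaged and the named pair became an alternative. A mean per group was fitted, and moderated two-sided contrasts gave the change in each line and their difference, with 18 residual and 19.4 total degrees of freedom. Benjamini-Hochberg adjustment covered every kept probe, with calls made under 0.05. The p-values measure the spread between arrays of individual mice. The tests were tried on simulated data first.

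Named genes were PAK1, the 10 genes with the largest positive and negative t of the difference, genes called in a line, 2 to 4 members of each list described by the size of t at the brightest probe, and genes the study names. The ranked genes could be named at a dimmer probe, and other probes are then given. The members, lists and rules were chosen with earlier results of these data known. Alternatives changed the averaging, BeadChip block, scaling, background correction, filter, test, weights and each array in turn. Promoter sequences came from RefSeq on GRCm38.p6. Some items are not reported here.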

Additional observations from a re-analysis of the deposited data

Results flagged for a closer look

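Within groups of 4 to 8 samples, 231 sets of levels of 77 genes were searched for a sample whose gap to its nearest neighbour was large against the range of its group, and 16 had one. Chance flags about 1 in 20 such sets. Values are log2 levels, and their cause was not tested. Among the ranked genes these were KIF1A at 8.19 in DRD1A acute 1F, NAMPT at 7.54 in DRD2 acute 2C, EEF1B2 at 9.14 in DRD1A acute 1C and NDST1 at 7.91 in DRD1A chronic 4F, each the highest of its group. LOC100048295 was lowest at 7.61 in DRD1A chronic 3C and LOC432554 lowest at 9.62 in DRD2 acute 4E.

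Of the genes named from lists, 2C among the DRD2 acute samples was highest for DRD1A at 8.42 and for GRM3 at 8.27. DSTN was highest at 8.43 in DRD2 acute 4E, and PSMD10 lowest at 9.16 in DRD2 acute 3F. In the DRD1A acute group ARC was lowest at 9.12 in 1E and FARP2 highest at 8.13 in 2D. Among DRD1A chronic samples 2E was highest for DRD2 at 7.76 and for NPY at 8.61, and 3C was highest for PAK3 at 10.57 and lowest for TIMM8B at 9.63.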

How the results depend on the processing

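The 77 named genes were in large part chosen by the size of this difference on the same arrays, which favours a kept direction. Not all of the 35 alternatives gave a value for every gene. Of 2665 values of the difference, 2661 kept their direction, and 1 passed the threshold. The exceptions were GNAO1, at 0.15 under median centering, and PAK3, whose difference ranged from -0.0475 (without DRD1A chronic 3C) to 0.3417 with single arrays left out, and was -0.0257 without DRD2 chronic 4A and -0.0008 without DRD2 acute 2F. PAK1 stayed between 1.01 and 1.54, with adjusted p from 0.535 to 0.995. The cause of the following changes was not tested. Probes called for the difference numbered 3 with arrays 1D and 4A averaged, an alternative added after the data were seen, and 0 to 7 with single arrays left out (7 without 4A, 1 without 1A and 1 without 2C). Averaging 1D with 4A, like keeping 23 separate samples, puts the near-identical arrays 1D and 3A in separate samples. Without 4A the DRD2 chronic group holds only 1A and 1D with 3A, and without 1A only 4A and 1D with 3A. Calls in DRD1A numbered 24 with 1D and 4A averaged, 0 without BeadChip 1, 247 under median centering (241 higher, 6 lower, 7 shared with the original 11), 5 without a filter, 22 with the detection filter, 5 with the plain linear model and 1 to 18 with single arrays left out (1 without 3D or without 3E). Calls in DRD2 numbered 2 with 23 separate samples, 15 with 1D and 4A averaged, 0 with the BeadChip as a block, 0 in the authors' series table, 3 with the detection filter, 0 with the plain linear model and 0 to 13 with single arrays left out (13 without 4A). The count of opposite changes of at least 0.5, 137 in the original fit, was 422 with the block, 240 without BeadChip 1, 782 with neqc, 68 in the series table and 127 to 182 with single arrays left out. No paired analysis was possible because the labels number arrays by BeadChip position and pair no mice.

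The limits lie in the DRD2 line, with 3 chronic samples after averaging, of which 1A carried DRD1A transcript, and in BeadChip 1, which held groups unequally. Levels near 7 are close to background, so changes there are compressed. XIST was at 9.19 in DRD2 acute 3F and at 6.91 to 7.67 elsewhere, and the part of sex in the results was not tested.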
